A study of Mus musculus with 9 samples.

Results

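A set of 10 genes of lipid-handling phagocytes, Trem2, Gpnmb, Cd68, Lpl, Spp1, Lgals3, Mmp12, Atp6v0d2, Ctsk and Acp5, were followed through culture of the embryonic mouse lung. They were chosen by name, for their gain in explant culture as seen in earlier results on these libraries, and they are 10 of the 55286 genes in the deposited tables. RNA was sequenced from 9 libraries in 3 groups of 3. The first group held wild-type lungs of mouse embryos at E11.5 (E gives the embryonic day). The other groups held explants of such lungs after 72 h in culture, as controls or with EPZ5676 (pinometostat), a small molecule that inhibits the histone H3 methyltransferase DOT1L. The labels name the material primary lung cells, and no group carries a transgene or allele other than wild type. The sources used here give no strain, dose, vehicle or number of embryos behind a library, so p-values reflect library spread within a group and part of that spread may be technical. The culture comparisons of the 10 genes are therefore descriptions, while EPZ5676 against control was not the comparison named when they were chosen, although it shares the control libraries.

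Tissue macrophages seed the embryonic lung early and clear dying cells and debris. Macrophages that take up much lipid, in atheroma, in fat or around myelin, share a programme that runs through the receptor TREM2 and its adaptor TYROBP and includes GPNMB, osteopontin (SPP1), galectin-3 (LGALS3) and lipoprotein lipase (LPL). Several of these genes also serve the osteoclast, the bone-resorbing relative of the macrophage, which secretes acid with a proton pump that holds ATP6V0D2 and digests bone matrix with cathepsin K (CTSK) and the phosphatase ACP5. The transcription factors MITF, TFE3, TFEB and TFEC bind M-box and E-box sequences near many lysosomal and osteoclast genes, and PU.1 directs macrophage genes in general. None of the 10 genes is private to phagocytes: Lpl, Lgals3, Spp1 and Ctsk are also made by mesenchymal or epithelial cells.

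Promoters are shown for 4 genes that were far higher in culture and for Acp5, the gene that was lower, so that genes moving in opposite directions can be read side by side. RefSeq (GRCm38.p6) promoter sequences were found for 8 of the 10 genes, at 12 start sites. Each line gives the 250 bases before a start site, 5′ to 3′ on the gene's strand, and capitals mark matches to any of 4 motifs on either strand: TCACATG (M-box core), TCACGTG (E-box of lysosomal genes), TGANTCA (AP-1) and GAGGAAGT (PU.1-type).
Gpnmb promoter, chr6:49036268-49036517, plus strand: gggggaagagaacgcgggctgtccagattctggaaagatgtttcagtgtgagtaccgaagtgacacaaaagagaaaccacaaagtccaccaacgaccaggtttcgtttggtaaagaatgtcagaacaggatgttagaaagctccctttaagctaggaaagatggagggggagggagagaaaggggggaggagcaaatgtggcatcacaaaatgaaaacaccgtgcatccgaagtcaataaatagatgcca
Spp1 promoter, chr5:104434861-104435110, plus strand: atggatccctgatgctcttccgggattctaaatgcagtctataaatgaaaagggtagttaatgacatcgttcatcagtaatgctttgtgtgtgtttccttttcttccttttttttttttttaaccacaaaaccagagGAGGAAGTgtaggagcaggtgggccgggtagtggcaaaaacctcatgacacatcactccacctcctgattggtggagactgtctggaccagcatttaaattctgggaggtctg
Trem2 promoter, chr17:48346151-48346400, plus strand: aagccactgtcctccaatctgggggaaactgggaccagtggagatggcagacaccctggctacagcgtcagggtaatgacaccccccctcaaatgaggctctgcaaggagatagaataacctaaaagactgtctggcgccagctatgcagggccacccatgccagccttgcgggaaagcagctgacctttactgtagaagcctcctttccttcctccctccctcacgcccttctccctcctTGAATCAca
Cd68 promoter, chr11:69666171-69666420, minus strand: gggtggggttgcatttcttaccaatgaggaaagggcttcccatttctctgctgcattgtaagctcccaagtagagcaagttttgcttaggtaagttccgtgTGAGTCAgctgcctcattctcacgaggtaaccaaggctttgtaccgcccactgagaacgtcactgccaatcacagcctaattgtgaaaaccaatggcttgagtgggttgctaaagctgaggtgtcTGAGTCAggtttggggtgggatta
Acp5 promoter, chr9:22135747-22135996, minus strand: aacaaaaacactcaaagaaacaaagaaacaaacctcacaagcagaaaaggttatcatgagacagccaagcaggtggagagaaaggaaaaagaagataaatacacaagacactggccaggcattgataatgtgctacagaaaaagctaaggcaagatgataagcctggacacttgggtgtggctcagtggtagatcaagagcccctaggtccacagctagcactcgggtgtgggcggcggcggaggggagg
TGANTCA was found for 3 of the 8 genes (Cd68, Mmp12 and Trem2), against 7.82% of all 27025 genes with a promoter of this length. GAGGAAGT was found for 2 of the 8 (Mmp12 and Spp1), against 2.79% of genes. TCACATG was also found for 2 of the 8, Mmp12 and a second Acp5 start that is not shown, against 3.96%. No window of the 8 genes held TCACGTG, which 3.58% of genes held. In the lines above, the TGAGTCA matches of Cd68 had first bases 149 and 24 bases before the start. Spp1 had GAGGAAGT from 113 bases before its start, and Trem2 had TGAATCA from 9 bases before its start. The Gpnmb window, in front of the gene with the largest gain in controls, held none of the 4 motifs, and neither did the Acp5 window shown. No matched stretches overlapped each other.

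The libraries held 6509563 to 9861452 estimated counts. Control 1 stood apart in transcripts of other organs: the summed level of 7 liver markers was 216 TPM there, against 1.92 and 2.35 TPM in the other controls and 1.32 to 1.58 TPM in the EPZ5676 explants, and 6 heart muscle markers summed to 145 TPM against 46.4 to 86.4 TPM in the other cultured libraries. Xist, the X inactivation RNA of females, marked 2 controls (278 and 281 TPM) and EPZ5676 2 (210 TPM), and reached at most 0.77 TPM in the other 3 cultured libraries. In fresh replicates 1 to 3, Xist was at 284, 143 and 72.5 TPM, and the Y-linked gene Ddx3y at 0, 20.0 and 30.2 TPM. Fresh replicates 2 and 3 thus held RNA of both sexes, and sex differed among the libraries of each group. Of 15158 genes tested, 37.7% differed between control explants and fresh lung and 40.0% between EPZ5676 explants and fresh lung, so a call on its own is common in either comparison (edgeR adjusted p under 0.05, here and below). All 10 genes passed the filter on low counts, but Trem2, Gpnmb, Spp1, Lgals3, Mmp12, Atp6v0d2 and Ctsk, with fewer than 10 counts in each fresh library, passed through the cultured libraries alone and so had to differ from fresh lung in some of them.

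After 72 h the explants held a high level of these transcripts in both cultured groups. The 10 genes summed to 40.9 to 50.9 TPM in the fresh libraries and to 1284 to 1996 TPM in the 6 cultured ones, where they made up 0.129% to 0.2% of all transcripts. Spp1, Gpnmb and Lgals3 supplied 89.0% to 91.4% of this sum in culture and 2.57% to 7.45% of it in fresh lung. Against fresh lung, 8 genes were higher and 1 (Acp5) was lower in control explants, where 21.1% of all genes were higher and 16.6% lower. In EPZ5676 explants 8 were higher and 0 lower, against 22.1% and 17.9% of all genes. The median log2 fold change of the 10 was 4.40 in controls and 4.36 with EPZ5676, beside 0.02 over all genes tested in both, and is the same with Atp6v0d2 at its lower bound. In TPM, all 6 cultured libraries lay above all 3 fresh ones for 8 genes and below them for 1, while Ctsk overlapped (17.1% and 20.0% of tested genes do so). These genes were picked for this gain, so the counts describe them and support nothing further. In whole-tissue RNA, more cells of a type and more RNA per cell cannot be told apart.

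**Figure D1:**
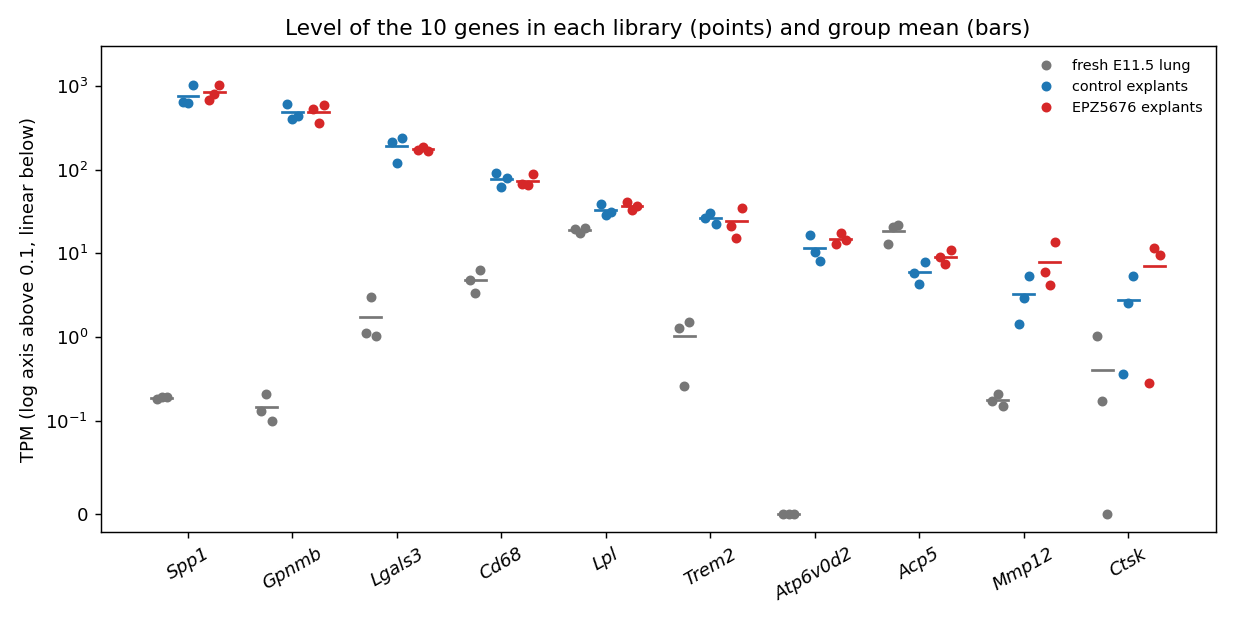
Level of the 10 genes in each of the 9 libraries, as deposited TPM (vertical axis, logarithmic above 0.1 TPM and linear below it), with points for libraries and bars for group means of 3, ordered by their mean in control explants. Spp1 and Gpnmb go from 0.10 to 0.21 TPM in fresh lung to between 360 and 1036 TPM in culture, Acp5 alone is lower in all 6 cultured libraries, and Ctsk is spread over both cultured groups.

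Among the surface proteins, Gpnmb (chr6:49036546-49070929 in GRCm38, plus strand), a transmembrane glycoprotein of lipid-laden macrophages, had the largest gain in controls of all 15158 genes and the second largest with EPZ5676. It was at 0.13, 0.21 and 0.10 TPM in the fresh libraries, at 612, 397 and 433 TPM in controls 1 to 3, and at 530, 360 and 587 TPM in EPZ5676 1 to 3. The fresh values rest on 5 reads over 3 libraries, against 25585 in the controls and 24508 with EPZ5676, with no overlap between fresh and cultured. That is a ratio of 4371 (exact 95% interval 1873 to 13460, counting error only) for controls and 4332 (1856 to 13340) for EPZ5676.

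Trem2 (chr17:48346401-48354147, plus strand), the lipid-sensing receptor itself, was detected at a low level in fresh lung, at 1.28, 0.26 and 1.52 TPM. These values rest on 6, 1 and 6 reads. In controls it was at 26.2, 30.5 and 22.3 TPM, and with EPZ5676 at 21.3, 15.3 and 35.2 TPM. Every cultured library was thus above every fresh one, but the treated libraries spanned a range wider than that of the controls on both sides. The log2 fold change against fresh lung was 4.71 ± 0.45 (SE) in controls and 4.6 ± 0.45 with EPZ5676, ranks 77 and 105 by size among all genes.

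Cd68 (chr11:69664213-69666153, minus strand), a sialomucin of macrophage endosomes and lysosomes, was at 4.74, 3.31 and 6.29 TPM in fresh lung. It reached 89.9, 62.0 and 79.1 TPM in controls and 67.5, 65.7 and 87.8 TPM with EPZ5676. The cultured values lay close together, within 1.45 times of each other, and far above the fresh ones. Its log2 fold change was 4.10 ± 0.24 in controls and 3.99 ± 0.24 with EPZ5676, so Cd68 and Trem2 had gains of similar size and Gpnmb a much larger one.

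Of the secreted proteins, Spp1 (chr5:104435118-104441050, plus strand; osteopontin, a matrix protein and cytokine bound by integrins and CD44) was the most abundant of the 10 in culture. It was at 0.18, 0.19 and 0.19 TPM in fresh lung, from 1 read in each library. In controls it was at 650, 626 and 1016 TPM and with EPZ5676 at 677, 791 and 1036 TPM, which placed its mean at rank 164 and rank 155 of the 55286 genes by TPM, from rank 21434 in fresh lung. The ratio of summed counts was 4136 (exact 95% interval 1415 to 20060) in controls and 4444 (1520 to 21550) with EPZ5676. In both cultured groups replicate 3 was the highest library.

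Lgals3 (chr14:47367751-47386160, plus strand), a sugar-binding lectin found at damaged lysosomes and outside the cell, was at 1.12, 3 and 1.02 TPM in fresh lung, where the counts were 3, 4 and 4. Controls held 215, 120 and 240 TPM and EPZ5676 explants 173, 188 and 166 TPM. The treated libraries lay inside the range of the controls, and all 6 cultured libraries were above every fresh one. The ratio of summed counts was 225 (126 to 452, counting error only) for controls and 200 (111 to 401) for treated explants. Fresh replicates 2 and 3 had equal counts but unequal TPM. Mean TPM (fresh 1.71, controls 192, treated explants 175) gives smaller ratios than the counts, so the size of the gain depends on the measure.

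Lpl (chr8:68880491-68907448, plus strand), which splits the triglycerides of lipoproteins, had the highest mean of the 10 in fresh lung, at 19.4, 17.6 and 19.8 TPM, although Acp5 was above it in 2 of the 3 fresh libraries. It had the smallest gain of the 8 genes that were higher. Controls held 38.6, 28.7 and 31.1 TPM and EPZ5676 explants 40.9, 32.4 and 36.7 TPM, all above fresh lung. The log2 fold change was 0.87 ± 0.11 in controls and 1.03 ± 0.11 with EPZ5676, and Lpl had rank 2152 and rank 1960 among all genes by this measure.

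Mmp12 (chr9:7344381-7369499, plus strand), the elastase of macrophages, stayed low. It was at 0.17, 0.21 and 0.15 TPM in fresh lung, at 1.43, 2.94 and 5.40 TPM in controls and at 5.97, 4.13 and 13.6 TPM with EPZ5676. The highest cultured library (EPZ5676 3) had 9.51 times the level of the lowest (Control 1), whereas the same ratio was at most 2.50 for the 8 members other than Mmp12 and Ctsk. Its log2 fold change against fresh lung was 2.88 ± 0.69 in controls and 4.07 ± 0.67 with EPZ5676, from a sum of 10 estimated reads in fresh lung. It was 2.19 in controls without Control 3 and 3.46 with EPZ5676 without EPZ5676 3. Over all libraries the fitted change was 7.4-fold for controls and 16.8-fold for treated explants. Mean TPM (fresh 0.18, controls 3.26, treated explants 7.9) gives larger ratios, so the size of this gain also depends on the measure.

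The genes of the acid compartment divided 3 ways. Atp6v0d2 (chr4:19876841-19922605, minus strand), an alternative form of a proton pump subunit that macrophages and osteoclasts use, had 0 reads in all 3 fresh libraries. It was at 16.5, 10.5 and 8.03 TPM in controls and at 12.9, 17.6 and 14.4 TPM with EPZ5676. With 3 reads per fresh library as the limit that a count of 0 allows, the level was at least 40.1-fold higher in controls and at least 51.9-fold higher with EPZ5676. The gene of the ubiquitous form of this subunit, Atp6v0d1, was at 46.9 to 50.2 TPM in fresh lung and 62.8 to 99.0 TPM in culture (log2 fold change in controls 0.73 ± 0.11, edgeR adjusted p = 6.9e-04). On the TPM scale the usual subunit thus remained the more abundant of the pair in every library.

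Ctsk (chr3:95499256-95509362, plus strand), the collagen-cutting protease, did not follow the cultured groups. Fresh libraries held 1.02, 0.17 and 0 TPM, controls 0.36, 2.54 and 5.33 TPM, and EPZ5676 explants 0.28, 11.51 and 9.52 TPM. Control 1 and EPZ5676 1 were both inside the fresh range while the other 4 cultured libraries were above it. The log2 fold change was 2.81 ± 1.62 in controls (not called, edgeR adjusted p = 0.209) and 4.12 ± 1.53 with EPZ5676 (edgeR adjusted p = 0.0622). Leaving out 1 library moved these values widely. In controls they ran from 1.70 (without Control 3) to 4.79 (without fresh replicate 1), and 3.40 without Control 1. With EPZ5676 they ran from 3.55 (edgeR adjusted p = 0.146, without EPZ5676 2) to 6.10 (edgeR adjusted p = 0.0699, without fresh replicate 1), and the call was gained in 1 case, at 4.71 without EPZ5676 1 (edgeR adjusted p = 0.0133).

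Acp5 (chr9:22126727-22135711, minus strand), tartrate-resistant acid phosphatase, went against the label of gain in culture. It was at 12.9, 20.7 and 21.9 TPM in fresh lung, second by mean to Lpl among the 10, and above it in fresh replicates 2 and 3. Controls held 5.79, 4.34 and 7.94 TPM and EPZ5676 explants 8.91, 7.37 and 10.9 TPM, all below every fresh library. The log2 fold change was -1.24 ± 0.33 in controls (edgeR adjusted p = 0.0137) and -0.73 ± 0.32 with EPZ5676 (edgeR adjusted p = 0.0933). Without fresh replicate 2 or 3 the call in controls was lost (edgeR adjusted p = 0.0533 and 0.0628), and without fresh replicate 1 the EPZ5676 comparison passed (log2 fold change -0.97, edgeR adjusted p = 0.0413). Acp5 also passed there without Control 3 (edgeR adjusted p = 0.0471).

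In order of mean TPM, control explants ran Spp1 (764 ± 218, SD, n = 3), Gpnmb (480 ± 116), Lgals3 (192 ± 63.5), Cd68 (77 ± 14.1), Lpl (32.8 ± 5.13), Trem2 (26.3 ± 4.10), Atp6v0d2 (11.7 ± 4.34), Acp5 (6.02 ± 1.81), Mmp12 (3.26 ± 2.00) and Ctsk (2.74 ± 2.49). The order with EPZ5676 was identical. Libraries overlapped between Lpl and Trem2 and among Acp5, Mmp12 and Ctsk in both cultured groups, and between Trem2 and Atp6v0d2 with EPZ5676. Other neighbours did not overlap. In fresh lung the order began with Lpl, Acp5 (18.5 ± 4.86) and Cd68 (4.78 ± 1.49), so Lpl and Acp5 led the set in fresh lung and Spp1 and Gpnmb in culture. Over the 6 cultured libraries the coefficient of variation was 13.6% for Lpl, 15.9% for Cd68 and 21.5% to 30.5% for Gpnmb, Lgals3, Spp1, Atp6v0d2, Trem2 and Acp5, against a median of 19.3% for tested genes with a mean of at least 1 TPM in culture. Mmp12 (76.4%) and Ctsk (96.4%) varied most among the 10.

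EPZ5676 was compared with control explants to ask what DOT1L inhibition does in the growing lung. None of the 10 genes passed the test, in a comparison where 0% of all 15158 genes passed with edgeR (1052, or 6.94%, had an unadjusted p under 0.05). One of the 10, Mmp12, had an unadjusted p under 0.05, and DESeq2 called 0 of the 10. Treated and control libraries overlapped in TPM for all 10 genes, while 5.64% of tested genes had every treated library above every control and 2.59% below. Of the 10, 7 had a log2 fold change above 0, with a median of 0.11, beside -0.0038 over all genes tested.

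The precision of these differences varied widely among the genes. Gpnmb had the smallest difference, a log2 fold change of 0.01 ± 0.16, and its 95% interval covers 0.788-fold to 1.29-fold. Lpl (0.16 ± 0.10, 0.952-fold to 1.31-fold) and Cd68 (-0.11 ± 0.19, 0.696-fold to 1.23-fold) had intervals of similar width. Spp1 (0.06 ± 0.26) could lie between 0.692-fold and 1.56-fold, Lgals3 (-0.18 ± 0.24) between 0.602-fold and 1.29-fold, and Trem2 (-0.11 ± 0.31) between 0.575-fold and 1.499-fold. For these 6 genes a change of 2-fold or more in either direction lies outside the interval. Atp6v0d2 (0.36 ± 0.23, up to 1.84-fold) was likewise bounded below 2-fold, while Acp5 (0.51 ± 0.34) reached 2.37-fold at its upper bound. Mmp12 had 1.19 ± 0.52 (1.03-fold to 5.06-fold, unadjusted p = 0.044, edgeR adjusted p = 0.710), which became 0.57 without EPZ5676 3 and 1.88 without Control 3. Ctsk had 1.31 ± 1.18 and an interval from 0.382-fold to 16.1-fold, and the log2 value ran from 0.72 without Control 1 to 2.43 without Control 3. A miss of the threshold does not show that the groups were alike. With 1 library left out the sign turned for Trem2 (0.0314 without EPZ5676 1 and 0.0941 without EPZ5676 2), Gpnmb (-0.11 without Control 2, -0.0102 without EPZ5676 1 and -0.13 without EPZ5676 3), Cd68 (0.0155 without Control 3), Spp1 (-0.12 without Control 1, -0.089 without Control 2 and -0.14 without EPZ5676 3) and Lgals3 (0.17 without Control 3).

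**Figure D2:**
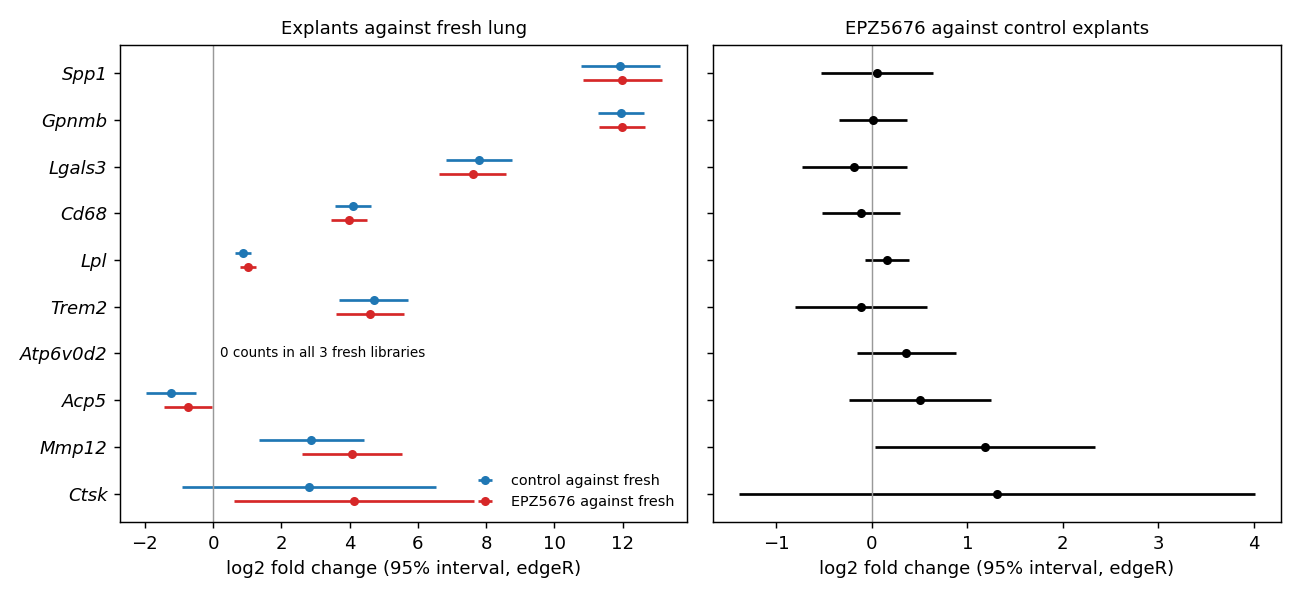
Log2 fold changes with 95% intervals from edgeR for each of the 10 genes (rows), for explants against fresh lung (left, control and EPZ5676 in separate colours) and for EPZ5676 against control explants (right, on a narrower axis). On the left, 8 genes lie to the right of 0 or have no fresh reads at all (Atp6v0d2, for which no fitted value is drawn), Acp5 lies to the left, and the control interval of Ctsk crosses 0. On the right, the interval of Mmp12 alone excludes 0, by a small margin and before adjustment.

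Most macrophage identity genes were also higher in culture. The median gain of this list was below that of the 10 genes. The 10 were picked for their gain, so this gap was set by the choice. Of 24 tested identity genes 20 rose and 3 fell in control explants against fresh lung (median log2 fold change 1.97, with 21.1% and 16.6% of all genes in those directions). Without Control 1 the counts were 19 and 3. Lyz2, lysozyme, rose from 2.61 to 5.18 TPM in fresh lung to 383 to 505 TPM in controls (log2 fold change 6.98 ± 0.26, edgeR adjusted p = 3.5e-07), and Csf1r, the growth factor receptor that defines the lineage, had 3.70 to 5.79 TPM in fresh lung and 4.53 to 12.8 TPM in controls (1.08 ± 0.25, edgeR adjusted p = 0.00666). The 3 that fell were Cx3cr1, Lyve1 and Pf4, the last of which platelets also make. The summed level of the 25 identity genes was 98.4 to 143 TPM in fresh lung, 762 to 906 TPM in controls and 1043 to 1237 TPM with EPZ5676. The sums of the cultured groups did not overlap. Lyz2 alone supplied 383 to 505 TPM of the sum in controls, so the sum follows its most abundant genes and does not measure macrophage number. Which cells held the Lyz2 RNA was not tested, and the sum of airway epithelial markers was also higher in culture (given below). None of the 24 tested genes passed the test between EPZ5676 and control explants, but 21 of them had a log2 fold change above 0 (median 0.31, beside -0.0038 over all genes). C1qa, C1qb and C1qc, the chains of complement C1q, and Lyz2 had every treated library above every control (5.64% of tested genes do so), with C1qb at 31.8 to 53.0 TPM against 9.13 to 28.6 TPM (log2 fold change 1.03 ± 0.32, edgeR adjusted p = 0.492). The part of this difference in the values of the 10 genes was not tested.

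Each gene was then set against the identity genes within its own library, as its log2 CPM (log2 of counts scaled to library size) minus the mean log2 CPM of the 24. The 10 genes were picked for their gain in culture, so a rise on this scale describes them and supports nothing further. Gpnmb was at -2.77 ± 0.33 in fresh libraries, 6.57 ± 0.33 in control explants and 6.15 ± 0.16 with EPZ5676 (SD, n = 3), and Spp1 at -3.06 ± 0.28, 5.79 ± 0.71 and 5.47 ± 0.27. Gpnmb, Spp1 and Atp6v0d2 had 0 to 2 reads in each fresh library. Their fresh values thus lie near the floor set by the prior count of 2, and the size of their shift depends on it. Trem2, Lgals3, Mmp12 and Ctsk had at most 6 reads in a fresh library, so the prior count also weighs on their fresh values. Trem2 was at -2.07 ± 0.68, 0.66 ± 0.11 and 0.05 ± 0.40, and Cd68 at -0.08 ± 0.41, 2.27 ± 0.42 and 1.74 ± 0.13. For Gpnmb, Spp1, Lgals3, Cd68, Trem2 and Atp6v0d2 every cultured library was above every fresh one on this scale. Lpl went the other way, from 3.70 ± 0.20 in fresh lung to 2.90 ± 0.30 and 2.64 ± 0.16, and so did Acp5, from 1.72 ± 0.73 to -1.16 ± 0.69 and -1.06 ± 0.13. Mmp12 and Ctsk overlapped between fresh and cultured libraries. The median of the 10 was -2.13 ± 0.10 for the fresh libraries, 1.54 ± 0.24 for controls and 1.21 ± 0.24 for EPZ5676.

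**Figure D3:**
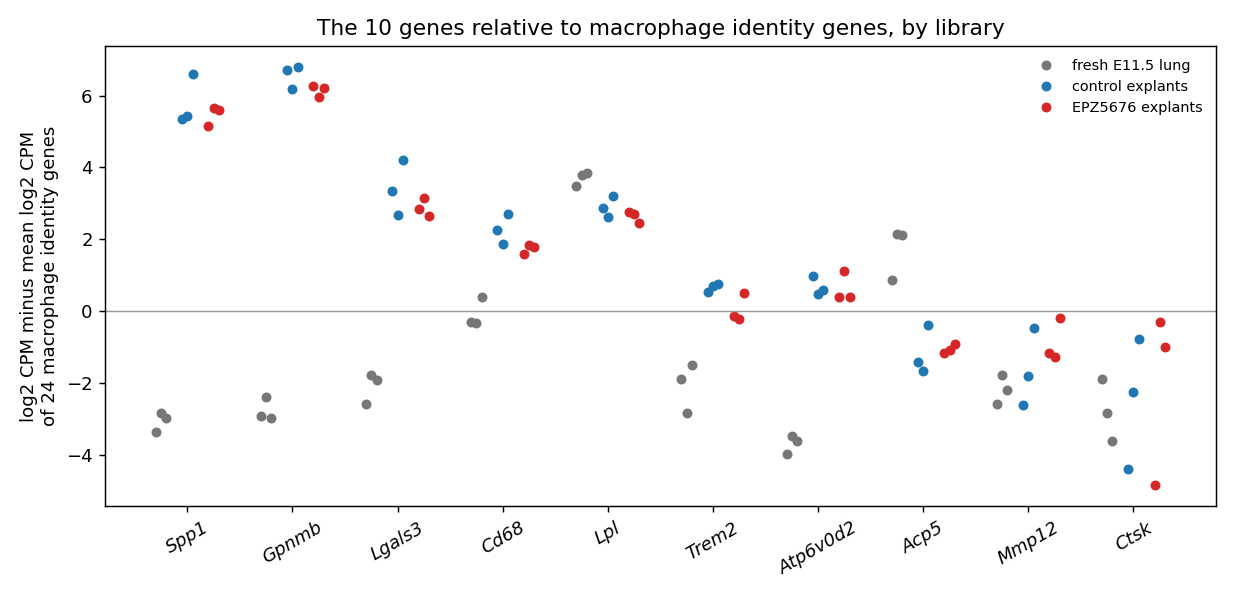
Each of the 10 genes in each library as log2 CPM minus the mean log2 CPM of 24 macrophage identity genes (vertical axis, a difference on the log2 scale), with 1 point per library and 0 marking the identity mean. For 6 genes the values rise relative to the identity genes in all cultured libraries, Lpl and Acp5 are lower in all of them, and Mmp12 and Ctsk overlap with fresh lung. The 10 genes were picked for their gain in culture. Fresh points of Gpnmb, Spp1 and Atp6v0d2, from 0 to 2 reads each, lie near the floor set by the prior count. Those of Trem2, Lgals3, Mmp12 and Ctsk rest on at most 6 reads each.

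Most genes that work with TREM2 or mark the same macrophage state rose as well. Of 18 tested genes of TREM2 signalling and lipid-associated macrophages, 16 rose and 0 fell in controls (median log2 fold change 2.46), and 14 rose without Control 1. Beside this list and those below, 21.1% of all genes rose and 16.6% fell in controls, with a median of 0.02. Without Control 1, 2914 of all 15557 genes tested rose. Tyrobp, the adaptor through which TREM2 signals, was at 7.44, 6.40 and 6.32 TPM in fresh lung, 150, 87.8 and 82.1 TPM in controls, and 133, 78.8 and 137 TPM with EPZ5676 (log2 fold change in controls 4.06 ± 0.27, edgeR adjusted p = 6.0e-06), a gain close to that of Cd68. Lilrb4a, an inhibitory receptor, had 3.94 ± 0.19 and Capg, an actin-capping protein, 3.78 ± 0.31. Itgax, an integrin chain, had the smallest p of this list between the cultured groups (log2 fold change 1.79 ± 0.50, edgeR adjusted p = 0.400), where none of the 18 passed.

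Of 19 tested genes of lipid uptake, storage and export 16 rose and 0 fell in controls (median 1.45). Cd36, a fatty acid and lipoprotein scavenger receptor, was at 2.90 to 4.05 TPM in fresh lung and 50.3 to 83.7 TPM in controls (log2 fold change 4.26 ± 0.25, edgeR adjusted p = 4.8e-06). Pparg, a fatty acid-sensing nuclear receptor, had 4.17 ± 0.52 and the scavenger receptor Msr1 3.20 ± 0.33. Of 9 partners of LPL only 3 passed the filter on low counts, of which 2 rose: Angptl4, an inhibitor of LPL, from 6.60 to 8.79 TPM to 21.5 to 31.3 TPM (log2 fold change 1.67 ± 0.17, edgeR adjusted p = 5.8e-05), and Sel1l, which LPL needs to leave the endoplasmic reticulum (0.39 ± 0.11). Gpihbp1, which anchors LPL on capillaries, did not pass the filter.

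In the acid compartment, 18 of 20 tested subunits of the vacuolar ATPase rose and 0 fell (median 0.87), led by Atp6v1c2 (3.47 ± 0.43), Atp6v0b (1.56 ± 0.15) and Tcirg1 (1.37 ± 0.18). Of 10 other cysteine cathepsins and cystatins 9 rose and 0 fell (median 2.12). Ctss had 3.68 ± 0.52, Ctsh 3.34 ± 0.19 and Ctsb 2.67 ± 0.14, the last from 85.4 to 107 TPM in fresh lung to 444 to 674 TPM in controls. Ctsk had a larger SE than these 3 (1.62) and did not pass. Of 9 MITF and TFE factors and their regulators 7 rose and 0 fell (median 1.03). Tfec was at 0.57 to 0.92 TPM in fresh lung and 2.46 to 4.13 TPM in controls (log2 fold change 2.20 ± 0.33, edgeR adjusted p = 6.3e-04), Mitf had 1.71 ± 0.29 and Tfeb 1.54 ± 0.33.

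Genes typical of osteoclasts were divided. Of 14 listed genes 9 were tested. In controls 4 of the 9 rose and 2 fell (median 0.65), with 21.1% and 16.6% of all genes in those directions. Without Control 1, 3 rose. The 4 included Ostm1 (1.45 ± 0.14) and Tcirg1, which other acid-secreting cells and lysosomes also use. Calcr, the calcitonin receptor of osteoclasts, fell from 1.23 to 1.87 TPM to 0.06 to 0.49 TPM (log2 fold change -2.18 ± 0.48, edgeR adjusted p = 0.00525). The fusion genes Ocstamp and Dcstamp were at or below 0.25 TPM and Mmp9 at or below 0.69 TPM in every library.

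Of 10 receptors of SPP1 and GPNMB 5 rose and 1 fell in controls (median 0.31). Itgb6, an epithelial integrin chain, had 2.86 ± 0.48 and Sdc4, a heparan sulphate proteoglycan to which GPNMB can bind, 2.27 ± 0.16, while Itga4 fell (-2.50 ± 0.19). Of 6 tested galectins other than Lgals3, 4 rose and 0 fell (median 1.44), with Lgals9 at 2.19 ± 0.28 and Lgals1 at 1.75 ± 0.17. Of 7 tested metalloproteinases and inhibitors other than Mmp12, 5 rose and 0 fell (median 0.63), with Mmp19 at 2.50 ± 0.31 and Mmp2 at 1.23 ± 0.20. Of 12 tested genes for the uptake of dying cells 7 rose and 1 fell (median 0.67), led by Cd300lf (3.42 ± 0.54) and the bridging ligand Gas6 (3.21 ± 0.25). Across all 12 lists 107 of 139 tested genes rose and 7 fell in controls, and 108 and 6 with EPZ5676, and these comparisons share the fresh libraries. Over all genes the shares were 21.1% and 16.6% in controls, and 22.1% and 17.9% with EPZ5676. Between EPZ5676 and control explants none of the 139 passed with edgeR. DESeq2 called 1, Ctsh (log2 fold change 0.84, DESeq2 adjusted p = 2.7e-04), which edgeR also called without a filter on low counts (edgeR adjusted p = 0.00226).

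**Figure D4:**
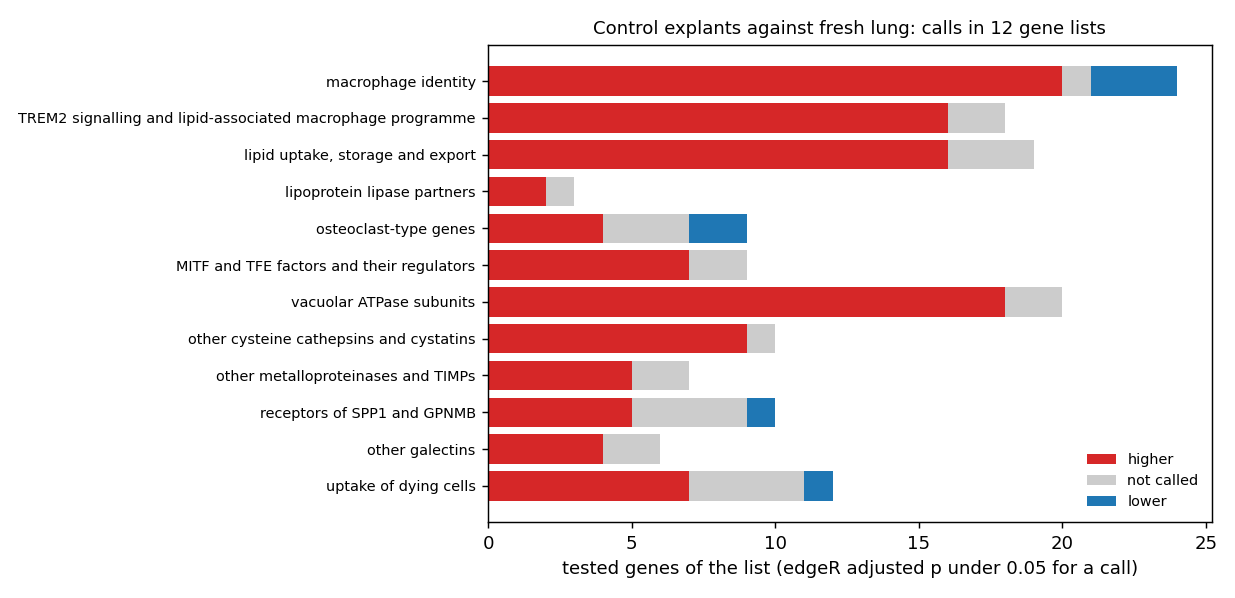
Number of tested genes (horizontal axis) called higher, not called or called lower in control explants against fresh lung, for 12 gene lists that hold none of the 10 genes. The list of TREM2 signalling has 16 of 18 genes higher and the vacuolar ATPase 18 of 20, while osteoclast-type genes have 4 higher and 2 lower of 9. Over all genes tested, 21.1% were higher and 16.6% lower.

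Markers of other cell types that can express these genes were measured beside them. The 7 melanocyte and Schwann cell markers, of cells that also make Gpnmb, summed to 14.4 to 20.7 TPM in fresh lung, 7.20 to 8.51 TPM in controls and 5.55 to 6.43 TPM with EPZ5676, lower in all cultured libraries. The 7 osteoclast markers summed to 3.99 to 4.98, 3.12 to 9.20 and 4.77 to 7.98 TPM, mostly from Nfatc1 in the cultured libraries (1.85 to 8.26 TPM), a gene that many cells express. The monocyte and neutrophil markers (8 genes) summed to 4.69 to 10.3 TPM in fresh lung, 1.19 to 18.1 TPM in controls, highest in Control 1, and 0.28 to 5.28 TPM with EPZ5676, and Ccr2 was at or below 0.39 TPM in every library. Airway epithelial markers (7 genes) summed to 284 to 294 TPM in fresh lung, 527 to 860 TPM in controls and 743 to 1017 TPM with EPZ5676. Lipofibroblast and mesenchymal markers (7 genes) summed to 232 to 333, 613 to 842 and 634 to 763 TPM. Both sums, like Lpl, Lgals3 and Spp1, were higher in every cultured library than in every fresh one, as were 17.1% of tested genes. The mesenchymal set includes the lipid genes Plin2, Fabp4 and Pparg, and Pparg is also in the list of lipid uptake, storage and export. Its sum therefore does not mark mesenchymal cells alone. Libraries within culture were not ordered alike by these sums and genes. The part of such cells in the gains was not tested. Of the 6 endothelial markers, the sum was 145 to 159 TPM in fresh lung and 8.11 to 63.6 TPM in culture. Without Control 1, the library with liver and heart muscle transcripts, the same number of the 10 genes was called in control explants against fresh lung (8 higher and 1 lower), where 2914 of 15557 genes tested were higher and 2209 lower.

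The genes with profiles nearest to the average of the 10 were found by the root mean square difference of centred log2 CPM over the 9 libraries, among 14510 other genes with a mean of at least 1 TPM, whose median difference was 2.31. Among the nearest were Cd53 (0.37), a leukocyte tetraspanin, Cd36 (0.40), the growth factor gene Fgf1 (0.42) and Syngr1 (0.42), a vesicle protein. Cd53 went from 1.18 ± 0.29 to 26.7 ± 8.68 TPM. Over the 6 cultured libraries alone the nearest included Tigd3 (0.09), Junb (0.09), Cfap300 (0.11) and Slc37a1 (0.12), against a median of 0.42, and none of these was among the nearest over 9 libraries. Within culture the 10 genes differed from their own average by 0.14 (Spp1) to 1.49 (Ctsk), with 6 of them below the median of all genes and Trem2, Atp6v0d2, Mmp12 and Ctsk above it. Each of the 10 is part of that average, and the libraries of a group share their scaling.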

How the data were processed

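RNA from 9 libraries was compared. Total RNA was extracted with TRIzol and made into libraries with a Vazyme VAHTS kit, per the labels' protocols. The authors deposited expected counts and TPM values per gene, made with RSEM, Bowtie2 and the build mm10, per the submitters' processing notes, which give no versions. No source used here states the strand setting. All 55286 gene identifiers and names matched GENCODE M21 (GRCm38, the assembly of mm10). Expected counts can be fractional because ambiguous reads are shared out, so they were rounded first.

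Genes were filtered with filterByExpr (minimum count 10), scaled by TMM and fitted by group over all 9 libraries with edgeR 4.0.16 (robust quasi-likelihood, legacy method, R 4.3.3), with Benjamini-Hochberg adjustment over 15158 genes and a threshold of 0.05, two-sided. Each SE comes from its F statistic, and a prior count of 2 was added for log2 CPM. Ratios of summed counts have exact binomial (Clopper-Pearson) intervals, which cover counting error only. Alternatives used DESeq2 1.42.0 and limma 3.58.1. The edgeR steps were tested on simulated data. Figures were drawn with matplotlib 3.10.9.

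The 10 genes, the 12 lists and the tests were chosen with earlier results of these data known. Named genes were the 10, Atp6v0d1, Tyrobp, up to 3 called members of each list with the largest change (otherwise the 2 with the smallest p), a mean of at least 1 TPM in the higher group, and the 5 nearest profiles over 9 and over 6 libraries, of which some are not reported here. Xist, Ddx3y, Csf1r, Gpihbp1, Ocstamp, Dcstamp, Mmp9, Nfatc1, Ccr2, Cx3cr1, Lyve1, Pf4 and C1qc were named after their values were seen. No replicate pair looked like 1 library deposited again (chi-square over degrees of freedom 2.56 to 28.5). Gene models of other genes overlap 18.8% of the exonic bases of Spp1, 6.75% of Acp5 and 2.17% of Mmp12, and these other genes reached at most 6 reads in a library.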

Additional observations from a re-analysis of the deposited data

How the results depend on the processing

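Counts of the 10 genes called against fresh lung were 8 or 9 in controls and 7 to 9 with EPZ5676 under 19 alternatives each, while counts over all genes ran from 3919 to 5760 and from 4370 to 6954 (RLE and upper-quartile scaling, DESeq2, 2 other filters, only the 6 libraries compared, the replicate block, limma-trend with pseudocounts of 1 and 0.1 TPM, each library left out, and the newer quasi-likelihood method of edgeR, which was chosen after seeing the data). A filter of at least 50 counts in 3 libraries tested only 8 of the 10, of which 8 were called in controls and 7 with EPZ5676. Between EPZ5676 and control explants, 0 of the genes tested among the 10 passed under any of the 19 (8 tested with that filter, otherwise 10). There the count over all genes was 0 as reported, 83 with DESeq2, 76 without a filter on low counts and 1 with the replicate block, and 0 to 26 with a library left out (26 without EPZ5676 2). The cause was not tested. Over the 139 listed genes it was 0 as reported and 1 with DESeq2 and without the filter. Signs of the log2 fold change between EPZ5676 and control explants turned only with a library left out, over a range of -0.53 to 0.0941 for Trem2, -0.13 to 0.16 for Gpnmb, -0.26 to 0.0155 for Cd68, -0.14 to 0.45 for Spp1 and -0.44 to 0.17 for Lgals3. Acp5 with EPZ5676 against fresh lung also passed with only the 6 libraries compared, with the replicate block and with limma-trend (log2 fold change -0.74, -0.72, -0.94 and -1.0), and Ctsk with DESeq2 (4.20). Relative to the identity genes, the median of the 10 in fresh lung was -2.13, -2.39 with a prior count of 0.5 and -1.96 against the median of the identity genes. Values of genes with few fresh reads move with the prior count by construction, and another reference shifts every gene.

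The labels share replicate numbers across groups but do not say that they mark a shared litter or day. Deviations of same-numbered control and EPZ5676 libraries from their group means correlated at 0.457, 0.079 and -0.047 for replicates 1, 2 and 3, so the replicate block was kept as an alternative. It changed no call of the 10 genes other than that of Acp5 with EPZ5676 (edgeR adjusted p = 0.0459).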
